A study of Mus musculus with 12 samples.

Results

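The circadian clock genes described here are Per1, Per2, Per3, Cry1, Cry2, Arntl, Clock, Nr1d1, Nr1d2 and Dbp, which were chosen by name. All 10 were found by symbol among the 24079 genes of the count table, and all 10 were kept among the 17823 genes whose reads summed to 15 or more. The RNA was pulled down with HA-tagged ribosomes, labelled as those of CA1 pyramidal cells, and each library held RNA of 4 to 6 pooled mice, with 6 libraries of wild-type and 6 of Fmr1-/y animals. All animals were males of a Wfs1-CreERT2:RiboTag background, aged 2 to 6 months, and received tamoxifen at 100 mg/kg on 3 days with tissue taken 1 week later. In both genotypes the Wfs1 promoter drives an inducible Cre recombinase, which switches on the tagged ribosomal protein Rpl22, and the ribosomes were taken from whole hippocampus. Markers of other cell types, choroid plexus above all, were also present in the counts, as given with the marker lists. The Fmr1-/y mice lack FMRP, an RNA-binding protein that controls translation, and the wild-type mice were their littermates. The mice were kept under a cycle with 12 h of light, and the hour of collection is not given in the sources used here.

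Mammalian cells keep time with a feedback loop of transcription. ARNTL (also called BMAL1) and CLOCK form a dimer that binds E-boxes and switches on the Per and Cry genes, whose proteins return to block the dimer. The same dimer switches on Nr1d1 and Nr1d2, which encode the nuclear receptors REV-ERBα and REV-ERBβ and repress Arntl through RORE elements, and Dbp, a transcription factor that acts on D-boxes. In most tissues with a running clock, the mRNAs of Dbp, Nr1d1 and the Per genes peak at neighbouring hours, Arntl peaks at the opposite time of day, and Clock changes little. Pools collected at different hours would therefore be read from how these genes move together, and that co-variation was examined here beside the genotype comparison.

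Promoter sequences were searched for 9 of the 10 genes (all but Per2), in 13 windows that run from 250 bases before to 50 bases after an annotated start (RefSeq, GRCm38.p6). They were searched on both strands for the E-box CACGTG, the D-box as TTATGTAA or TTACGTAA, the RORE as TAGGTCA or TGGGTCA, and the cAMP response element TGACGTCA. A stretch around each match is shown, 200 bases of the window for Per1, Cry1 and Per3 and 27 bases for Arntl, so that the letters searched for can be seen in place. Capitals mark the match and the gene's strand is written 5′ to 3′.
Per1, chr11:69098699-69098898, plus strand: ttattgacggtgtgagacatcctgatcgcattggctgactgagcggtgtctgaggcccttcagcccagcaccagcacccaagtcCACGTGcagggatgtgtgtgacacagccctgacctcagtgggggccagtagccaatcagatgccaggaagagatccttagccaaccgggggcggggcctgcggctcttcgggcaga
Cry1, chr10:85185075-85185274, minus strand: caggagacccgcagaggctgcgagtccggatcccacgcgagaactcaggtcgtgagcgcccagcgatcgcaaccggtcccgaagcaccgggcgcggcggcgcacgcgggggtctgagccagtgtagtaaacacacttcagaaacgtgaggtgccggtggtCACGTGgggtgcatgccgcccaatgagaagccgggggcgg
Per3, chr4:151044716-151044915, minus strand: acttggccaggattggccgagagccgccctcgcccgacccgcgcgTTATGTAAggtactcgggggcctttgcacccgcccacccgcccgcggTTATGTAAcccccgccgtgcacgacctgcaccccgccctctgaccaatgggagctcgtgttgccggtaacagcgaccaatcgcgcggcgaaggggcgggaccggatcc
Arntl, chr7:113207531-113207557, plus strand: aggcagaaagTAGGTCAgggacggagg
Counted in bases from the annotated start, the E-box is centred at -163 in Per1 and at -57 in Cry1. Per3 has 2 D-boxes, centred at -201 and -154, and Arntl has a RORE centred at 33. The first 3 stretches overlap no exon of the GENCODE vM21 annotation, with the Per1 stretch inside the span of a longer Per1 transcript, while the Arntl stretch lies in exon sequence. Among 32851 RefSeq promoter windows of the same length, 7.15% hold this E-box, 1.06% this D-box, 6.45% a RORE and 1.79% the cAMP response element, for which no window of the 9 genes had a match. A match is only a run of letters, and none of the results that follow was sorted by it.

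Levels were compared between genes per kilobase of exon sequence, as CPM (counts scaled by edgeR's TMM method to a common library size) divided by the joined exon length. On this scale, in wild-type libraries, Dbp stood at 40.9 ± 7.25 CPM per kb (SD, n = 6), Cry2 at 37.3 ± 2.59 and Nr1d1 at 36.4 ± 3.47. These 3 levels lay within each other's spread. Per1 at 18.5 ± 1.99 and Nr1d2 at 17.7 ± 0.767 came next and also lay within each other's spread. Arntl at 12.4 ± 1.14 and its partner Clock at 11.0 ± 1.53 followed, then Per2 at 8.73 ± 0.909, Per3 at 6.91 ± 0.922 and Cry1 at 4.43 ± 0.647. The joined exon length came from the basic subset of GENCODE transcripts. For Arntl it was 3090 bases, shorter than its longest transcript in the full set (3995 bases), so the order of Arntl and Clock depends on the length taken. Per2 and Per3 lay within about their summed SD, and the lowest level was that of Cry1. In Fmr1-/y libraries Cry2 at 38.3 ± 1.88 and Dbp at 37.7 ± 4.12 exchanged places, again within the spread, and every other gene kept its place.

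No clock gene differed between the genotypes in edgeR's quasi-likelihood test (adjusted p from 0.634 to 0.999, Benjamini-Hochberg over 17823 genes). None of the 10 had an unadjusted p under 0.05 in edgeR, in DESeq2 or in limma voom. Over all genes tested, 0.0224% passed the adjusted threshold and 7.96% had an unadjusted p under 0.05. The groups overlapped for each of the 10 genes, and they did not overlap for 0.623% of all genes. The estimate was lower in Fmr1-/y libraries for 8 genes and higher for 2, with a median log2 fold change of -0.05 beside 0.004 for all genes. The median size of the difference was 0.052 on the log2 scale for the clock genes and 0.104 for all genes. Fmr1 itself was counted 1971 to 2608 times per wild-type library and 0 to 1 times per Fmr1-/y library.

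The activator genes Arntl and Clock had overlapping levels in both genotypes. Arntl (chromosome 7, 113178471 to 113314126) ranged from 33.8 to 42.2 CPM in wild-type libraries with a median of 38.3, and from 33.2 to 39.5 with a median of 37.0 in Fmr1-/y libraries. Its log2 fold change was -0.06 (SE 0.07, adjusted p = 0.923 in edgeR). Clock (chromosome 5, 76209868 to 76305603) ranged from 89.2 to 126 CPM with a median of 112 in wild-type and from 84.6 to 123 with a median of 100.1 in Fmr1-/y libraries, a log2 fold change of -0.09 (SE 0.11, adjusted p = 0.916 in edgeR). Although Clock is known as the least rhythmic member, it was among the more variable here, with Fmr1-/y replicates 1, 2 and 5 between 84.6 and 88.4 CPM and replicates 3, 4 and 6 between 112 and 123.

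Among the repressor genes, Per2 came closest to a genotype difference. Per2 (chromosome 1, 91415977 to 91459351), a light- and hormone-responsive repressor, ranged from 41.4 to 57.2 CPM with a median of 52.2 in wild-type libraries and from 37.6 to 50.1 with a median of 45.6 in Fmr1-/y libraries. Wild-type replicates 3 (49.5 CPM) and 6 (41.4 CPM) lay within the Fmr1-/y range, and the other 4 wild-type libraries lay above it, between 51.7 and 57.2 CPM. The Fmr1-/y level was 88.6% of wild type (95% interval 78.3% to 100.3%), a log2 fold change of -0.17 (SE 0.08, unadjusted p = 0.0544, adjusted p = 0.634 in edgeR). Its unadjusted p in edgeR was 0.0104 without wild-type replicate 6, 0.0352 without Fmr1-/y replicate 4 and 0.0334 without Fmr1-/y replicate 6, with adjusted p from 0.442 to 0.537 in these fits. In the other fits with 1 library left out, the unadjusted p of Per2 in edgeR lay between 0.0626 and 0.135.

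The estimates of its relatives were smaller. Per1 (chromosome 11, 69095108 to 69109965), which responds fastest to light and cAMP, ranged from 94.0 to 124 CPM (median 101) in wild-type and from 88.1 to 112 (median 104) in Fmr1-/y libraries, with a log2 fold change of -0.03 (SE 0.08). Per3 (chromosome 4, 150997018 to 151044707), which is dispensable for the core rhythm, ranged from 34.3 to 48.1 CPM (median 40.3) and from 31.5 to 53.3 (median 35.9), with a log2 fold change of -0.11 (SE 0.12). The highest and the lowest Per3 value of the study were thus both in Fmr1-/y libraries. Without the highest, Fmr1-/y replicate 3, the log2 fold change of Per3 was -0.22 (unadjusted p = 0.0336, adjusted p = 0.474 in edgeR). In the other fits with 1 library left out, the unadjusted p of Per3 in edgeR lay between 0.204 and 0.638.

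The cryptochrome genes had the only estimates above 0. Cry1 (chromosome 10, 85131700 to 85185054), the stronger transcriptional repressor of the pair, had 10.8 to 16.0 CPM (median 13.3) in wild-type and 11.4 to 15.4 (median 14.1) in Fmr1-/y libraries, with a log2 fold change of 0.05 (SE 0.11). Cry2 (chromosome 2, 92403646 to 92434085) had 144 to 174 CPM (median 165) and 154 to 174 (median 170.3), with a log2 fold change of 0.04 (SE 0.06). The order of the cryptochromes per kilobase, Cry2 above Cry1, held in both genotypes without overlap of their SDs.

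The nuclear receptor genes had narrow ranges. Nr1d1 (chromosome 11, 98767932 to 98775377), which overlaps Thra on the other strand in reads that were counted by strand, ranged from 86.7 to 111 CPM (median 97.6) in wild-type and from 86.5 to 102 (median 96.9) in Fmr1-/y libraries, with a log2 fold change of -0.05 (SE 0.07). Nr1d2 (chromosome 14, 18204056 to 18239106) ranged from 78.4 to 86.7 CPM (median 82.2) and from 76.5 to 89.2 (median 82.7), and its Fmr1-/y level had a 95% interval of 91.9% to 109% of wild type. It was the least variable member, with a ratio of 1.17 between its highest and lowest library.

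Dbp (chromosome 7, 45705100 to 45710203), the output factor with the widest known daily swing, ranged from 58.7 to 93.5 CPM (median 76.3) in wild-type and from 53.9 to 73.5 (median 72.0) in Fmr1-/y libraries. Its log2 fold change was -0.12 (SE 0.11, unadjusted p = 0.287, adjusted p = 0.857 in edgeR). In 5 of the 6 Fmr1-/y libraries Dbp lay between 70.4 and 73.5 CPM, with replicate 4 apart at 53.9, whereas the wild-type libraries were spread out. Over the 10 genes the 95% intervals of the genotype ratio reached down to 78.0% of wild type for Per3 and up to 120% for Cry1. The bounds differed by gene, with narrower intervals for Nr1d2 (91.9% to 109%) and Cry2 (94.2% to 112%). Differences inside a gene's own interval were not excluded with 6 pools a group.

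**Figure D1:**
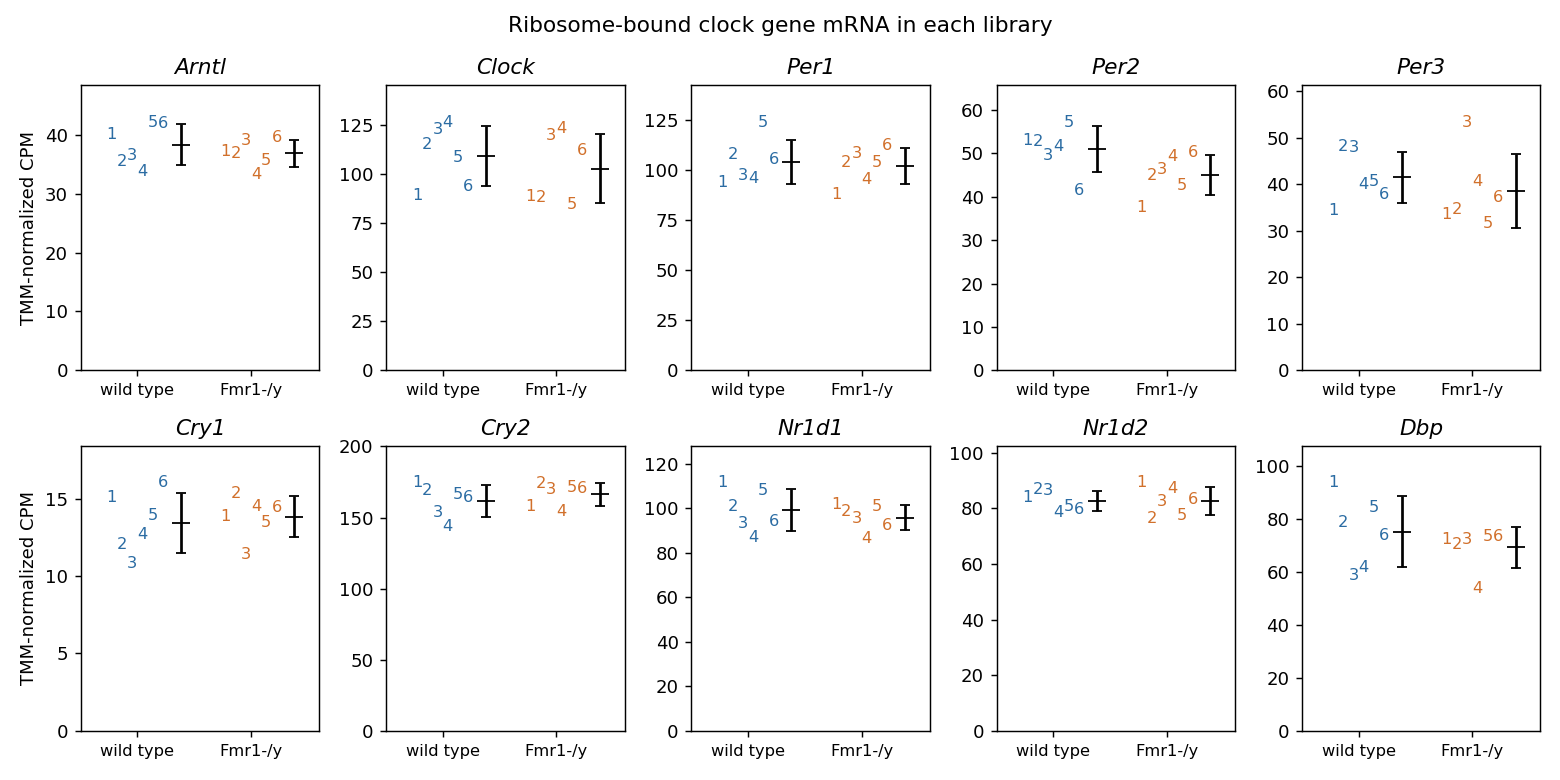
TMM-normalized CPM of the 10 clock genes in each library (each digit is the replicate number of a library, blue for wild type and orange for Fmr1-/y, black marks the mean and SD, n = 6), with each y axis starting at 0. The groups overlap in every panel, and Dbp in Fmr1-/y replicate 4 lies at 53.9 CPM below the other Fmr1-/y libraries.

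**Figure D2:**
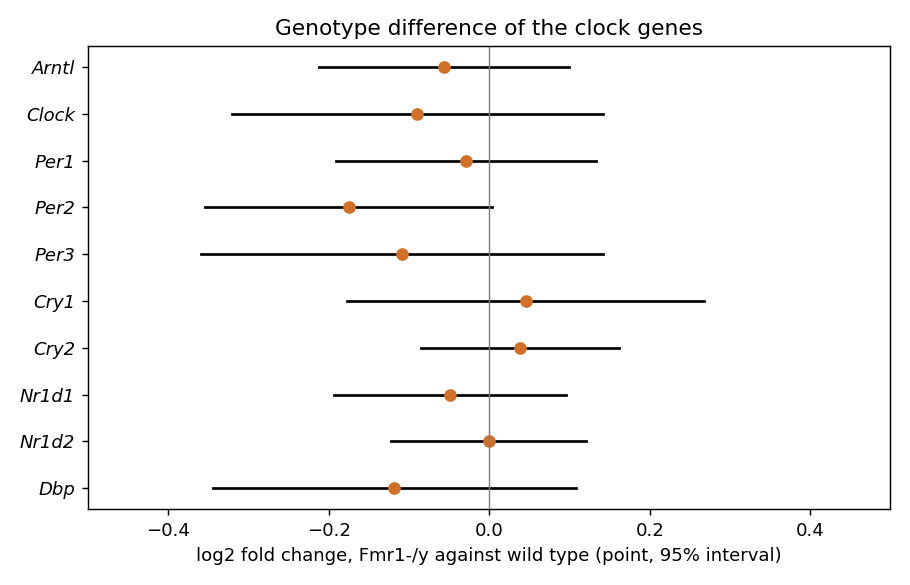
Log2 fold change of Fmr1-/y against wild type for each clock gene (x axis, point) with its 95% interval (line) from edgeR's quasi-likelihood fit. Every interval includes 0, and that of Per2 comes nearest to leaving it out.

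The spread between pools was small. The ratio of the highest to the lowest of the 12 libraries was 1.74 for Dbp, 1.69 for Per3, 1.52 for Per2, 1.49 for Clock, 1.48 for Cry1 and 1.41 for Per1. It was 1.29 for Nr1d1, 1.27 for Arntl, 1.21 for Cry2 and 1.17 for Nr1d2. The median SD of log2 CPM within a genotype was 0.147 for the clock genes and 0.224 for all genes tested. The biological coefficient of variation, edgeR's estimate of the spread beyond counting error, had a median of 10.5% for the clock genes and 15.3% for all genes. This measure falls as expression rises, so each gene was set against the trend at its own level. Clock (dispersion 1.69 times the trend), Per3 (1.49) and, at nearly the same ratio as Per3, Dbp lay above it, which is 3 of 10 clock genes beside 38.6% of all genes. Each library is a pool of 4 to 6 mice, so differences between animals of a pool are averaged out.

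Co-variation was tested over the 12 libraries after subtracting each genotype's mean from log2 CPM, with a two-sided permutation test of 100000 resamples and Benjamini-Hochberg adjustment over the 45 pairs of clock genes. Of the 45 pairs, 26 had a positive r, 9 had an unadjusted p under 0.05, and 3 passed the adjusted threshold, all with a positive r. With Spearman's rank correlation no pair passed the threshold (lowest adjusted p = 0.116).

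Dbp and Nr1d1, which are both direct targets of the ARNTL and CLOCK dimer, had the highest correlation of all pairs. Their Pearson r was 0.874 (permutation p = 0.00107, adjusted p = 0.044) and Spearman's rho was 0.825 (permutation p = 0.00515, adjusted p = 0.116). The r was 0.908 among wild-type (exact permutation p = 0.0167) and 0.793 among Fmr1-/y libraries (exact permutation p = 0.103). Over both genotypes r was 0.900 without the 2 libraries whose Dbp lay farthest from the median. Among Fmr1-/y libraries, Dbp was 53.9 CPM in replicate 4 and 70.4 to 73.5 CPM in the others. The r among Fmr1-/y libraries therefore rests largely on replicate 4. Wild-type replicates 1 and 5 had both genes high, and replicate 4 of both genotypes and wild-type replicate 3 had both low.

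Dbp and Cry2 had an r of 0.840 (permutation p = 0.00227, adjusted p = 0.044) and a rho of 0.748 (permutation p = 0.0149, adjusted p = 0.167). Their r was 0.900 in wild-type (exact permutation p = 0.0181) and 0.713 in Fmr1-/y libraries (exact permutation p = 0.0847). Over both genotypes r was 0.822 without the 2 farthest libraries. Here too the r among Fmr1-/y libraries rests largely on the low Dbp of replicate 4. Per3 and Clock had an r of 0.786 (permutation p = 0.00293, adjusted p = 0.044) and a rho of 0.797 (permutation p = 0.00464, adjusted p = 0.116), with r of 0.751 and 0.810 in the genotypes and 0.853 without the 2 farthest libraries. These calls changed when single libraries were left out. No pair passed without Fmr1-/y replicate 3, 4 or 5 or wild-type replicate 1, 2 or 5, and 1 pair passed without Fmr1-/y replicate 6 or wild-type replicate 3 or 6. Between 2 and 3 pairs passed without Fmr1-/y replicate 1 or 2 or wild-type replicate 4. Among these fits Dbp and Nr1d1 passed in 5, Dbp and Cry2 in 2, and Per3 and Clock in 1. These are fewer passes than the counts per fit, so the passing pairs were not always these 3. Over these fits r stayed between 0.825 and 0.915 for Dbp and Nr1d1, between 0.799 and 0.915 for Dbp and Cry2, and between 0.745 and 0.860 for Per3 and Clock.

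With all libraries kept, none of the other 42 pairs passed the threshold, and their values are given as such. Arntl, known to peak opposite to Dbp, had a positive r with Dbp of 0.677 (rho 0.538, permutation adjusted p = 0.207) and with Nr1d1 of 0.532 (rho 0.490, permutation adjusted p = 0.380). Per2, known to peak near Dbp, had an r with it of 0.033 (rho 0.364, permutation adjusted p = 0.998). The twin receptor genes Nr1d1 and Nr1d2 had an r of -0.001 (rho -0.007, permutation adjusted p = 0.998), and Per3 and Dbp had an r of -0.34 (rho -0.31, permutation adjusted p = 0.575). Clock was opposite to Nr1d1 with an r of -0.70 (rho -0.71, permutation adjusted p = 0.107) and to Dbp with an r of -0.63 (rho -0.57, permutation adjusted p = 0.168). Per3 and Cry1, the members with the lowest levels per kilobase, had the lowest r of all pairs at -0.74 (rho -0.55, permutation adjusted p = 0.095).

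**Figure D3:**
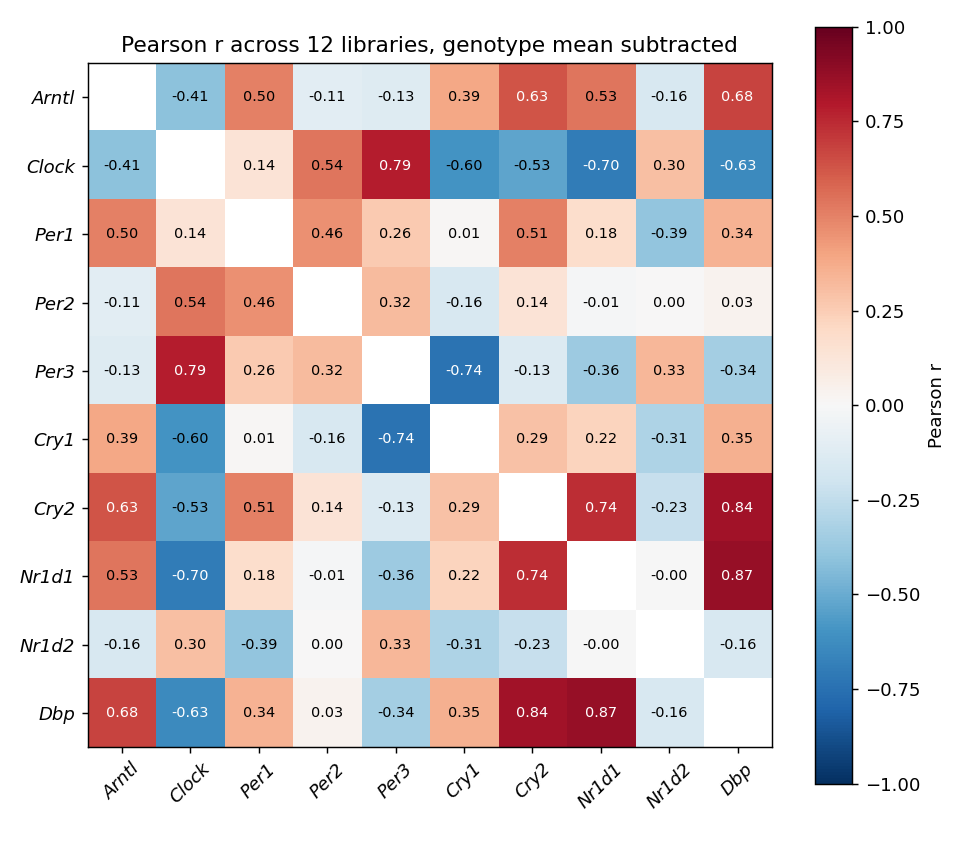
Pearson r between each pair of clock genes over 12 libraries, computed on log2 CPM after subtracting the genotype mean (red positive, blue negative, the number in each cell is r). Dbp, Nr1d1, Cry2 and Arntl form a block of positive r, Clock and Per3 form another, and Nr1d2 has no |r| above 0.40.

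**Figure D4:**
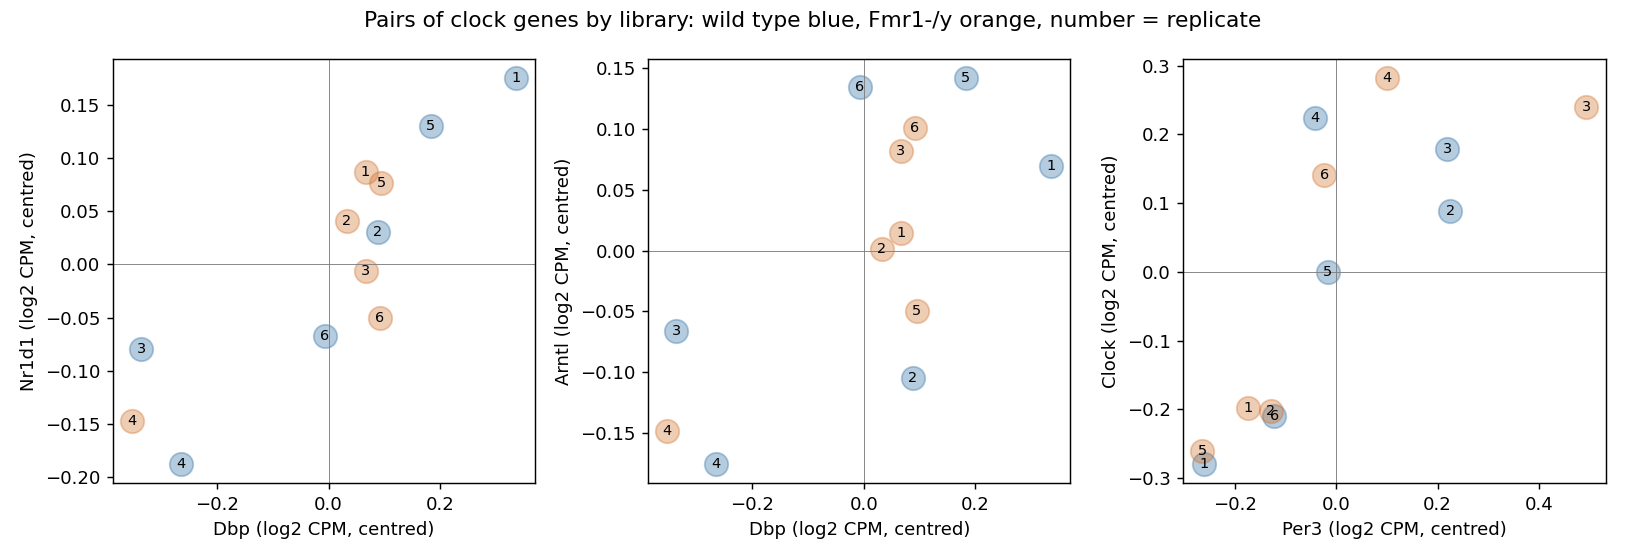
Log2 CPM of Nr1d1 against Dbp, Arntl against Dbp and Clock against Per3 after subtracting the genotype mean (points are libraries, blue wild type, orange Fmr1-/y, the digit is the replicate number). The left panel rises along the diagonal (r 0.874), Arntl also rises with Dbp (r 0.677), and Clock and Per3 rise together (r 0.786).

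The same question was asked of every gene, with a model in which log2 CPM of Dbp was added to genotype. A slope of 1 means that a gene doubled where Dbp doubled. By edgeR, 0 of the 9 remaining clock genes and 0 of all 17822 genes (0%) passed the adjusted threshold, while limma voom also passed no clock gene and DESeq2 passed 232 genes, among them Nr1d1 (adjusted p = 0.0379). At an unadjusted p under 0.05 there were 4 of 9 clock genes beside 17.3% of all genes. Nr1d1 had a slope of 0.46 (SE 0.12, unadjusted p = 0.00207, adjusted p = 0.173), Cry2 of 0.34 (SE 0.12, adjusted p = 0.192), Arntl of 0.35 (SE 0.16, adjusted p = 0.276) and Clock of -0.64 (SE 0.22, adjusted p = 0.192). The slopes of Per1 (0.24), Cry1 (0.28), Per2 (0.03), Nr1d2 (-0.06) and Per3 (-0.34) had intervals that included 0. Markers of cell types also moved with Dbp, so such slopes were not particular to clock genes. The median slope was 0.42 for the CA1 pyramidal markers, all positive, and -0.85 for the choroid plexus markers, all negative. It was 0.24 for the clock genes, and ran from -0.77 (interneuron) to 0.09 (dentate granule) for the other marker lists. No marker passed the adjusted threshold. The part of cell content in the clock gene slopes was not tested.

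By unadjusted p, Nr1d1 ranked 196 among the 17822 genes. The genes nearest to Dbp with a mean of at least 5 CPM were Lmtk3 (slope 0.83, r with Dbp 0.902), Plekhg5 (0.77, r 0.919), Ncdn (0.71, r 0.897), Cep131, 2010300C02Rik, C1qtnf4, Fbll1 and Chpf. The genes most opposite to it were Fmnl2 (slope -0.95, r -0.88), Dact1 (-1.07, r -0.92), Gm14169, Twistnb, Dusp18, Esco1, Alg11 and Qk. All 16 had the same adjusted p of 0.173 in edgeR, and r is given over 12 libraries as a description.

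Further clock transcription factors and regulators were examined by list. Of 11 further transcription factors, none passed the genotype test, 4 had higher and 7 lower estimates in Fmr1-/y libraries, and the median log2 fold change was -0.004. Bhlhe40, an E-box-binding repressor, had 180.0 ± 22.4 CPM in wild-type and 161 ± 11.7 in Fmr1-/y libraries (SD, n = 6), a log2 fold change of -0.17 (SE 0.08, unadjusted p = 0.0469, adjusted p = 0.621 in edgeR). Nfil3, the repressor that competes with Dbp for D-boxes, had a log2 fold change of -0.08, Rorb of 0.06 and Arntl2, a paralog of Arntl, of 0.09. On the slope with Dbp, Ciart, a repressor induced by the clock dimer, had 0.88 (SE 0.26, adjusted p = 0.173 in edgeR), Bhlhe40 0.47 (SE 0.15, adjusted p = 0.179) and Bhlhe41 0.42 (SE 0.19, adjusted p = 0.272). Rora and Rorb, which encode activators acting through RORE elements, had slopes of -0.82 (SE 0.27, adjusted p = 0.183 in edgeR) and -0.43 (SE 0.18, adjusted p = 0.248). Tef and Hlf, the closest relatives of Dbp, had slopes of 0.13 (SE 0.12) and -0.27 (SE 0.23). Ciart, Bhlhe40, Bhlhe41, Rora and Rorb are the 5 of 11 genes whose slope had an unadjusted p under 0.05, beside the 17.3% of all genes.

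Of 12 regulators of clock proteins, the casein kinases, ubiquitin ligase subunits and others, none passed the genotype test and none had an unadjusted p under 0.05. Their log2 fold changes ran from -0.12 for Fbxl21 and -0.10 for Timeless to 0.04 for Btrc. Among 10 genes known as clock outputs none passed, and 3, beside 7.96% of all genes, had an unadjusted p under 0.05: Pfkfb3 (log2 fold change -0.21, SE 0.07, adjusted p = 0.397 in edgeR) and Slc6a6 (-0.15, SE 0.06, adjusted p = 0.499) with lower estimates, and Pdzrn3 (0.59, SE 0.25, adjusted p = 0.542) with a higher one. The other extremes of this list were Wee1 (-0.18) and Fmo2 (0.68). The median slope on Dbp was 0.06 for the regulators and -0.13 for the outputs. At an unadjusted p under 0.05 in edgeR (17.3% of all genes), Sirt1 (-0.61) and Usp2 (-0.31) of the regulators fell as Dbp rose. So did Cdkn1a (-0.69) and Lonrf3 (-0.80) of the outputs. No gene of these lists had a positive slope at that level, and none passed the adjusted threshold.

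Clock genes also respond to hormones, temperature and neuronal activity, so lists for these were set beside them. None of the 10 glucocorticoid-responsive, 8 temperature-responsive and 11 activity-regulated genes passed the genotype test. The extremes of the glucocorticoid list were Zbtb16 (log2 fold change -0.24) and Nfkbia (-0.10) on the lower side and Mt1 (0.24) and Sult1a1 (0.32) on the higher side. The temperature list ran from Hsph1 (-0.07) and Hsp90aa1 (0.03) to Hspa1b (0.18) and Hspa1a (0.19), and the activity list from Npas4 (-0.39) and Arc (-0.25) to Egr2 (0.06) and Fosb (0.13). On the slope with Dbp, 2 of the 10 glucocorticoid-responsive, 2 of the 8 temperature-responsive and 3 of the 11 activity-regulated genes had an unadjusted p under 0.05, beside 17.3% of all genes, and none passed the adjusted threshold. These were Sgk1 (-0.89) and Tsc22d3 (-0.68), Cirbp (0.63) and Hspa1b (1.29), and Junb (0.90), Egr1 (0.66) and Egr4 (1.27), with adjusted p from 0.173 to 0.221 in edgeR. Cirbp encodes a cold-inducible RNA-binding protein that acts on Clock mRNA.

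Properties of the libraries moved with several clock genes. For each library a GC index was taken as the mean log2 CPM of the 2228 genes with a GC content of 55.6% or more minus that of the 2228 genes with 44.0% or less, and a length index in the same way from transcript length. Scores of cell type markers are mean log2 CPM over each list. These indices were chosen after the data were seen, and 110 relations with the 10 genes were tested by permutation, of which 4 passed the threshold after Benjamini-Hochberg adjustment.

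Clock, whose longest transcript of 9744 bases is the longest among the members, rose with the length index (r 0.893, rho 0.825, permutation adjusted p = 0.0242 for r and 0.117 for rho), with r of 0.907 in wild-type and 0.890 in Fmr1-/y libraries. Cry2 rose with the CA1 pyramidal marker score (r 0.889, rho 0.888, permutation adjusted p = 0.0055 for r and 0.0462 for rho) and with the GC index (r 0.849, rho 0.776, permutation adjusted p = 0.0192 for r and 0.180 for rho). It fell with the choroid plexus score (r -0.85, rho -0.73, permutation adjusted p = 0.0242 for r and 0.260 for rho). Dbp, with 61.6% the member of highest GC content, had an r of 0.780 with the GC index (rho 0.524, permutation adjusted p = 0.0795 for r) and of 0.793 with the CA1 score (rho 0.713, permutation adjusted p = 0.0519 for r), which did not pass. The r with the GC index did not follow GC content throughout. It was 0.395 for Per1 (59.4% GC) and 0.678 for Arntl (48.2% GC). Without the 2 farthest libraries r was -0.81 for Cry2 with the choroid plexus score, 0.851 for Clock with length, 0.761 for Cry2 with the CA1 score, 0.838 for Cry2 with GC, 0.788 for Dbp with GC and 0.560 for Dbp with the CA1 score.

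With the GC index, the length index or the CA1 score removed from both genes, 0 of the 45 pairs passed the threshold in each case. The r of Dbp and Nr1d1 was then 0.771, 0.830 and 0.757 (permutation adjusted p = 0.215, 0.171 and 0.0763). The r of Dbp and Cry2 was 0.538, 0.792 and 0.485, and that of Per3 and Clock 0.855, 0.455 and 0.812. Across 11139 genes, which are not independent replicates, the slope on Dbp had an r of 0.207 with GC content and of -0.35 with log2 transcript length. The part of these properties in the co-variation of the clock genes was not tested further, and neither was that of the hour of collection.

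**Figure D5:**
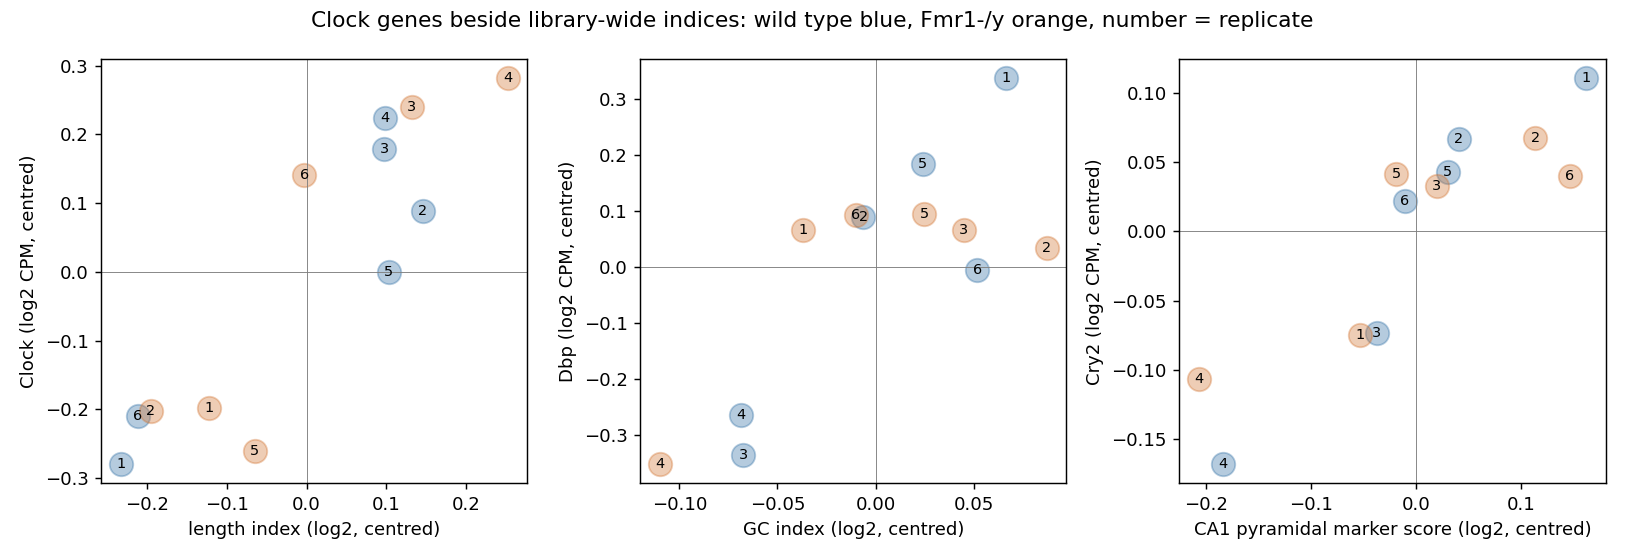
Log2 CPM of Clock against the length index, of Dbp against the GC index and of Cry2 against the CA1 pyramidal marker score, each after subtracting the genotype mean (points are libraries, blue wild type, orange Fmr1-/y, the digit is the replicate number). All 3 rise from left to right (r 0.893, 0.780 and 0.889), with replicate 4 of both genotypes at the lower left in the middle and right panels.

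Markers were checked on the same counts. The summed level of 6 CA1 pyramidal markers was 8276 to 10235 CPM in wild-type and 8020 to 9487 CPM in Fmr1-/y libraries, and all 6 had lower estimates in Fmr1-/y libraries, 2 of them at an unadjusted p under 0.05 (7.96% of all genes). Those of 5 choroid plexus markers (6374 to 11856 and 8299 to 17487 CPM), 6 astrocyte markers (735 to 891 and 804 to 1246 CPM) and 5 endothelial markers (35.1 to 50.6 and 45.3 to 66.7 CPM) had higher estimates for every gene, 8 of 16 at an unadjusted p under 0.05, again beside 7.96%. No marker gene passed the adjusted threshold, and none was at 0. The interneuron (7 genes), dentate granule (5), oligodendrocyte (6) and microglia (6) lists had median log2 fold changes of -0.09, -0.18, -0.16 and 0.01. Clock genes are expressed in all these cell types, and fewer cells of a type cannot be told apart from less RNA per cell in such pools. Their part in the clock gene levels was not tested.

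Libraries of both genotypes carry numbers 1 to 6, without a statement in the labels of what a number marks. Nr1d1 was alike in same-numbered libraries (r 0.949 over 6 numbers, exact permutation p = 0.00417, adjusted p = 0.0417 over the 10 genes; rho 0.943, exact permutation p = 0.0167, adjusted p = 0.167; r 0.916 without the 2 farthest numbers). Nr1d1 levels in replicate 1 were 111 CPM (wild type) and 102 CPM (Fmr1-/y), those in replicate 5 were 108 and 101 CPM, and those in replicate 4 were 86.7 and 86.5 CPM. The other 9 genes did not pass, with r from -0.61 for Per2 (rho -0.89, exact permutation adjusted p = 0.479 for r) to 0.50 for Dbp (rho 0.200). Over all genes the deviations of same-numbered libraries had r from -0.08 to 0.090 with a mean of 0.025. With any 1 number left out the call for Nr1d1 was lost, at r from 0.937 to 0.980 over 5 numbers, where the smallest exact p is 0.00833. At that p 1 gene alone cannot pass after adjustment over 10 genes, so this loss does not bear on the relation. Which libraries shared a sequencing lane of 4 is not given in the sources used here, so lane and replicate number cannot be told apart.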

How the data were processed

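Ribosome-bound RNA of 12 libraries was sequenced on a stranded protocol. According to the methods and the submitters' processing notes, the authors made reads with bcl2fastq 2.17, aligned them to mm10 with TopHat2 2.1.1 and Bowtie2 2.2.8, discarded alignments with over 3 mismatches and counted per gene with HTSeq 0.6.1p1 in union mode, using strand. The deposited values are raw counts of 24079 genes, 39400980 to 65565479 reads per library, which were used as they stand.

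Genes with at least 15 reads in total were kept, the filter of the study, leaving 17823. Genotypes were compared in R 4.3.3 with edgeR 4.0.16 (TMM, quasi-likelihood test, no block) and Benjamini-Hochberg adjustment over all genes at 0.05, with DESeq2 1.42.0 and limma 3.58.1 voom as alternatives. SE is the log2 fold change divided by the square root of F. Correlations used log2 CPM with a prior count of 2. Libraries are separate pools of mice. Deviations of same-numbered libraries had a correlation of -0.08 to 0.090 over all genes, and no block was used in the main fits. This correlation does not settle whether the numbers pair the libraries, and fits with the replicate block are given as alternatives.

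The members and gene lists were chosen with earlier results of these data known. Named were the 10 members, the 2 highest and 2 lowest genes of each list with any past a threshold, and 8 genes on each side of the slope on Dbp with at least 5 CPM. Genes with an unadjusted p under 0.05 in the lists, the marker lists, and Ciart, Bhlhe41, Rora, Tef, Hlf, Sirt1, Usp2, Cdkn1a, Lonrf3 and the genes of the hormone, temperature and activity lists given with their slopes were named after their values were seen. The values of 1 gene that this rule names are not reported here. Coordinates are from RefSeq (GRCm38.p6, the build of mm10), matched by Entrez identifier, and transcript length and GC content, found for 93.2% of the genes tested, from GENCODE. The fits and correlations were tested on simulated data.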

Additional observations from a re-analysis of the deposited data

Results flagged for a closer look

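Dbp in Fmr1-/y replicate 4 stood apart from its group. Its level was 53.9 CPM, and the other 5 Fmr1-/y libraries lay between 70.4 and 73.5 CPM. The gap to the nearest library took a share of 0.842 of the whole range, above Dixon's 95% critical value for 6 samples. This was 1 of 20 groups examined (10 genes in each genotype), and chance flags about 1 in 20. The same library had the lowest CA1 pyramidal marker score and the lowest GC index of the 12. The part of these in the Dbp level was not tested.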

How the results depend on the processing

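No clock gene passed the genotype test under any alternative run, which were DESeq2's size factors, its Wald test, limma voom, a minimum of 1 read in total or 10 reads in every library, the replicate block, Dbp as a covariate and each library left out (0 members in each, adjusted p from 0.442 to 0.9995). Over all genes 4 passed in edgeR, 84 in DESeq2's Wald test, 1 with 10 reads in every library and 2 to 6 with 1 library left out. Of 189 single-gene comparisons 178 kept their direction. The log2 fold change turned to 0.00346 for Nr1d1 with Dbp as a covariate and to 0.0012 for Nr1d2 with 10 reads in every library. With 1 library left out it ran from -0.058 to 0.027 for Per1 (above 0 without Fmr1-/y replicate 1 or wild-type replicate 5), from -0.024 to 0.021 for Nr1d2 and from -0.010 to 0.102 for Cry1 (below 0 without wild-type replicate 3). For the others it ran from -0.22 (without Fmr1-/y replicate 3) to -0.057 (without Fmr1-/y replicate 5) for Per3, from -0.18 (without wild-type replicate 3) to -0.045 (without wild-type replicate 1) for Dbp, from -0.148 (without Fmr1-/y replicate 4) to -0.039 (without Fmr1-/y replicate 5) for Clock, from -0.090 to -0.027 for Arntl, from -0.084 to -0.012 for Nr1d1, from 0.0065 to 0.061 for Cry2 and from -0.23 to -0.128 for Per2.

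For the slope on Dbp, 160 of 170 single-gene comparisons kept their direction and side of the threshold. DESeq2's Wald test passed 1 clock gene and 232 genes in all, and leaving out 1 library passed 0 to 1 genes in all, the 1 without Fmr1-/y replicate 1. The Per2 slope was -0.018 with Nr1d1 as the reference gene. With the replicate block no clock gene passed, 0 clock genes in place of 4 and 754 genes in place of 3081 had an unadjusted p under 0.05, the slopes of Per3 and Clock turned to 0.48 and 0.27, that of Nr1d1 was 0.21 in place of 0.46 and that of Per2 0.67 in place of 0.03. With 1 library left out the slope ran from -0.052 to 0.200 for Per2, from -0.12 to 0.016 for Nr1d2, from 0.060 (without wild-type replicate 3) to 0.508 (without Fmr1-/y replicate 4) for Cry1, from 0.118 (without wild-type replicate 5) to 0.467 (without wild-type replicate 1) for Per1 and from -0.45 (without wild-type replicate 4) to -0.18 (without wild-type replicate 1) for Per3.

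Pairs past the threshold numbered 3 with DESeq2's size factors or a prior count of 0.5, 0 to 3 with 1 library left out, 0 with Spearman's rank correlation, and 0 with the GC index, the length index or the CA1 score removed, the last 4 chosen after seeing the data. Same-numbered libraries gave 0 clock genes past the threshold with DESeq2's size factors (Nr1d1 r 0.933) and 0 with any 1 replicate number left out. The causes were not tested. Leaving out a library also leaves fewer samples. With 6 pools a group, the interval of the log2 fold change was widest for Per3.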
